A study of Mus musculus with 40 samples.

Results

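The comparison set 5 livers of ovariectomized mice that carried a dihydrotestosterone (DHT) pellet, labelled Ovarectomized + dihydrotestosterone (animals 50 to 54), against 5 livers of testis-intact males (animals 8 to 12). These 10 livers were chosen by their labels alone, from 40 livers in 8 groups of 5, and the autosomal genes were of most interest: 10441 of the 10842 genes named on the array. All mice were C57BL/6J, an inbred laboratory strain. In the DHT group the ovaries were removed at 8 weeks of age, the pellet was placed at 12 weeks, and the liver was taken at 14 weeks. The pellet held 5 mg and, per the labels, released its hormone over 21 days at 1 to 2 ng/ml in plasma. The males kept their testes, were also 14 weeks old, and the labels do not say whether they carried a pellet. All animals ate chow with 4% fat and were fasted for 12 h. The 2 groups therefore differ at once in chromosomal sex, surgery, pellet and androgen, and these cannot be told apart. Beside them stand ovariectomized mice with a placebo pellet, castrated males with the same DHT pellet, castrated males with placebo, and intact females, 5 animals each. The remaining 2 groups, ovariectomized mice and castrated males with an estradiol pellet (labelled estrogen), enter the joint fit, the array correlations and the plot of all 40 livers. All operated groups had surgery at 8 weeks and a pellet at 12 weeks. Every liver was taken at 14 weeks.

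The mouse liver runs a sex-dependent program of steroid, drug and lipid metabolism. Much of it is set by the rhythm of pituitary growth hormone: pulses in males activate the transcription factor STAT5B in bursts and uphold genes such as the Cyp2d9 steroid hydroxylase, while the more continuous female rhythm upholds genes such as Cyp2b9 and A1bg. Androgens act on this program largely through that rhythm, and DHT, unlike testosterone, cannot be turned into estradiol. The comparison asks how far an androgen alone brings a liver without ovaries to the state of a liver with testes.

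Values are log2 ratios of each liver to a pool of 40 livers, from 1 array per animal with 23574 probes. The array medians lay between -0.045 and 0.036, and a typical probe scattered within groups with an SD of 0.146 (median over probes). A gene passed at an adjusted p under 0.05 in limma, and each difference below is the mean of the DHT group minus the mean of intact males unless another pair is named. The Y-linked translation factor subunit Eif2s3y matched the labels: it lay between -5.84 and -4.64 in the 5 ovariectomized mice and between 0.41 and 1.33 in the 5 males. The arrays of the 2 groups correlated with each other at r between -0.24 and 0.50 over all probes, and the lowest correlation among all 780 pairs of the 40 arrays was -0.47. The dye labelling was the same on every array, so the direction of all ratios was kept.

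Animal 53 of the DHT group stood apart from the other 4, and calls of named genes that are lost without it are stated as such. A score per animal, the mean of the measured male-biased genes minus that of the female-biased genes listed below, was 1.22, 1.40, 1.25 and 1.23 in animals 50, 51, 52 and 54 and -1.48 in animal 53. Placebo-treated ovariectomized mice lay between -1.70 and -1.17, intact females between -1.52 and -1.26, and intact males between 2.23 and 2.89. On sex-biased genes animal 53 thus sat among the mice without androgen, and the other 4 sat between those and the males without touching either. One castrated male with DHT, animal 61, was also low at -0.50, against 0.98 to 2.39 in its 4 group mates. Over all probes, the array of animal 53 correlated with the placebo mean at r = 0.38 and with the male mean at r = -0.26, while the other 4 correlated with the male mean at 0.33 to 0.51.

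Animal 53 differed from its group mates at some androgen-responsive genes and not at others. In castrated males, which share no animal with this comparison, DHT raised 70 autosomal genes and lowered 59 by at least 1.5-fold. Of the raised genes, 46 also differed between intact females and males, and animal 53 was nearer the placebo mean than the mean of its 4 group mates for 37 of them. Of the 24 raised genes that did not differ between the intact sexes, it was nearer the placebo mean for 6 and nearer its group mates for 18. The lowered genes split the same way: 25 of 34 sex-differing genes were nearer placebo, and 8 of 25 others were. The labels say nothing that sets animal 53 apart, and the reason was not tested. Among the intact males, animal 11 stood apart for several genes, and its values are named where a result rests on it.

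Across all probes, 1056 of 23574 passed (4.48%), 333 higher and 723 lower in the DHT group, and 252 of these differed by at least 1.5-fold. Among autosomal genes 181 were higher (1.73%) and 339 were lower (3.25%). The 2 groups of 5 did not overlap for 566 autosomal genes (5.42%). Without animal 53, 560 probes passed, with 85 autosomal genes higher (0.814%) and 183 lower (1.75%). For scale, placebo-treated ovariectomized mice differed from the same males at 488 autosomal genes higher (4.67%) and 649 lower (6.22%). Castrated males with DHT differed from them at 281 higher (2.69%) and 436 lower (4.18%). These 3 comparisons share the intact males, so their values are set side by side and no overlap between them is drawn. Against placebo-treated ovariectomized mice, DHT moved 73 autosomal genes up (0.699%) and 61 down (0.584%). Over all probes that was 271, or 443 without animal 53 and 89 without animal 50.

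Of 24 measured genes known to be higher in male liver, 0 were higher and 11 were lower than in intact males, with a median difference of -0.65, where all autosomal genes had a median of 0. With placebo, 20 of the 24 were lower and the median was -1.92. DHT against placebo raised 9 of the 24, with a median of 0.95. Without animal 53, 10 were lower than in males and the median was -0.46. In castrated males with DHT, 8 of the 24 were lower than in intact males, with a median of -0.73. Between the intact sexes, 21 of the 24 were lower in females. Of 30 measured genes known to be higher in female liver, 8 were higher and 1, Ntrk2, was lower, with a median difference of 0.56. For both lists, the shares of all autosomal genes in this comparison were 1.73% higher and 3.25% lower, or 0.814% and 1.75% without animal 53. They were 4.67% and 6.22% for placebo against males and 2.69% and 4.18% for castrated DHT against males. DHT against placebo raised 0.699% and lowered 0.584%. Between the intact sexes, 422 of 10441 autosomal genes were higher and 575 lower in females. With placebo 19 of the 30 female-biased genes were higher than in males, with a median of 1.05. DHT against placebo lowered 10 of the 30, with a median of -0.58. Without animal 53, 4 were higher than in males and the median was 0.21. In castrated males with DHT, 3 of the 30 were higher than in intact males, with a median of 0.39. Between the intact sexes, 18 of the 30 were higher in females, 1 was lower and 11 did not pass, so not every listed gene had a sex difference here. The remaining distance was thus smaller than that of the placebo group on both lists, and it was uneven from gene to gene.

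**Figure D1:**
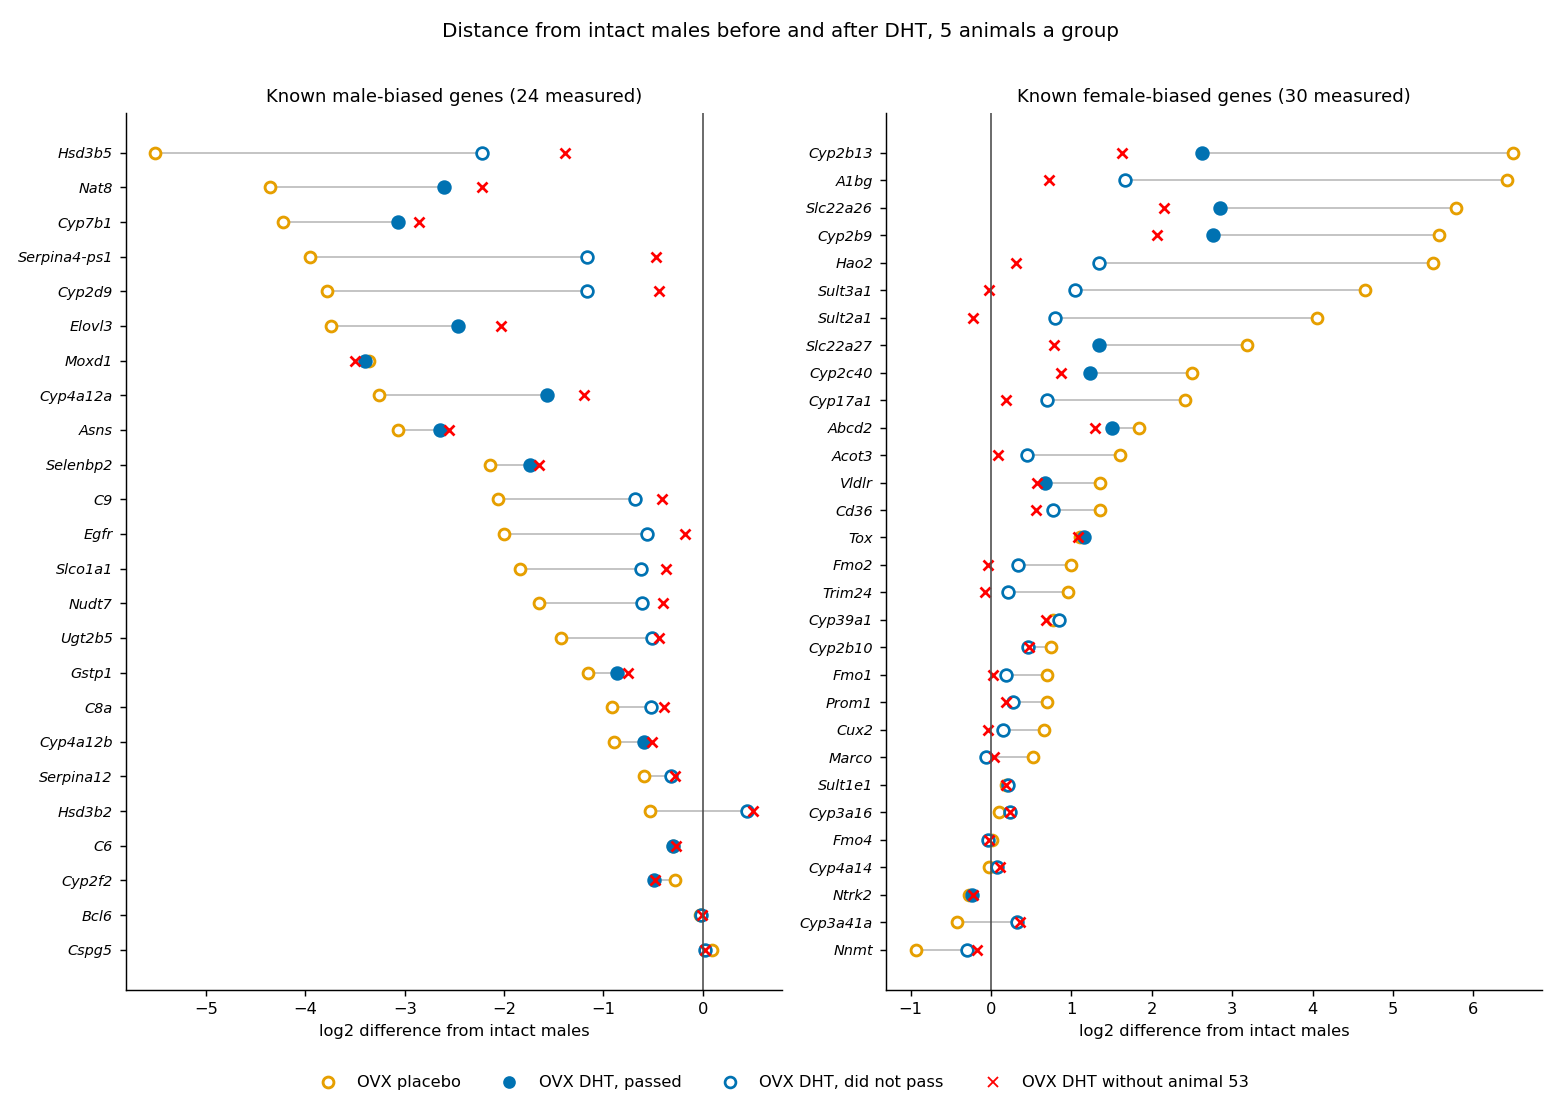
Log2 difference from intact males for 24 male-biased genes (left) and 30 female-biased genes (right). Open orange circles are ovariectomized mice with placebo, blue circles the same with DHT (filled where adjusted p is under 0.05), and red crosses leave out animal 53, so the line from orange to blue is what separates the 2 ovariectomized groups. Hsd3b5 runs from -5.51 to -2.22 and A1bg from 6.42 to 1.67, while Moxd1 and Tox stay where they were.

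The promoters of 5 sex-biased genes described below are shown first, A1bg among them as a gene that did not pass, from RefSeq's GRCm38.p6 table, each running from 250 bases before to 50 bases after the gene's start. Cyp2b9 and Cyp2b13, neighbours in a cytochrome P450 family, moved together, and their promoters were identical at 298 of 300 bases. The differing bases are in capitals and are T48C and C104T, counted from 1 at the first base printed, with Cyp2b9 named first. In the other 3 the capitals mark TTCNNNGAA, the motif bound by STAT5, which was searched on both strands.
Cyp2b9, chr7:26173159-26173458, plus strand: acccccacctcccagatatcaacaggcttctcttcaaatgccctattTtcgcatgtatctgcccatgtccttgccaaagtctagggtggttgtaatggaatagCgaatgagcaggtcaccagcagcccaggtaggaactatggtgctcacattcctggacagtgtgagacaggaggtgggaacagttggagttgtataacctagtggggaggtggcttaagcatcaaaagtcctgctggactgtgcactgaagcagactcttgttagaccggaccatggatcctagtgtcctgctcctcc
Cyp2b13, chr7:26061245-26061544, plus strand: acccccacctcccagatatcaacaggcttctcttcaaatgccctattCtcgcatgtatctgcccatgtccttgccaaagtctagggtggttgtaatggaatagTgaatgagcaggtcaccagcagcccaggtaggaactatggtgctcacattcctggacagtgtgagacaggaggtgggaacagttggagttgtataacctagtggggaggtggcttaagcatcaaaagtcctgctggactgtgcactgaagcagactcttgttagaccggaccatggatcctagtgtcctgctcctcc
Slc22a26, chr19:7802618-7802917, minus strand: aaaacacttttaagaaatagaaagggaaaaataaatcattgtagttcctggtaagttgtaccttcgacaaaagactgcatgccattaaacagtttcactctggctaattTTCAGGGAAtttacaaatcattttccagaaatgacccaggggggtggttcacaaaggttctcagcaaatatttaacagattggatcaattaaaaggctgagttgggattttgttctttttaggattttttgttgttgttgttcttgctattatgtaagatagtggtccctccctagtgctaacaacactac
A1bg, chr15:60921221-60921520, minus strand: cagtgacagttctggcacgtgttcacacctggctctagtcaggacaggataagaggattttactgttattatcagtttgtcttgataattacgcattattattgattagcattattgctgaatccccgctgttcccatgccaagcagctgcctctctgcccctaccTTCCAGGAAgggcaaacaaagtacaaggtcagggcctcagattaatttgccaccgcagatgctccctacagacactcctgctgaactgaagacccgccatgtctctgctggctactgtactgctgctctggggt
Moxd1, chr10:24223267-24223566, plus strand: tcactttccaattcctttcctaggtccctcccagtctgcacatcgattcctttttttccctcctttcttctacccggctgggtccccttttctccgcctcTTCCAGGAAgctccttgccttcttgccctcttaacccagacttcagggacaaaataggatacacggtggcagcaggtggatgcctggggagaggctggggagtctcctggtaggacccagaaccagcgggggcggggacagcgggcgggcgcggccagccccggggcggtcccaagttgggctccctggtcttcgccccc
The motif began 141 bases before the start of Slc22a26, 84 before that of A1bg and 150 before that of Moxd1. These 3 genes behaved differently, as given below. Of the 132 genes called higher that have an entry in the table, 11 (8.33%) held the motif, against 16 of 282 called lower (5.67%) and 701 of 8273 autosomal genes tested (8.47%). AGAACA, the core of a half-site for the androgen receptor, occurred on either strand in 14.4% of those called higher, 18.4% of those called lower and 16.4% of those tested. Over all 27025 genes of the table the shares were 9.55% and 21.3%. A gene with several entries counted as holding a motif if any entry held it.

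Among the female-biased genes, Slc22a26, an organic anion transporter of the solute carrier family, kept the largest distance. Its log2 ratios were -2.93, -3.05, -3.31, 0.44 and -2.75 in animals 50 to 54 and -5.12, -5.26, -5.59, -4.75 and -5.12 in males 8 to 12. All 5 ovariectomized mice lay above all 5 males, while 4 of them lay far below the placebo mean of 0.61. The difference was 2.85 ± 0.56 (SE), or 7.19-fold (adjusted p = 0.00141 in limma), and 2.15 without animal 53 (adjusted p = 0.0107), against 5.78 with placebo. After quantile normalization it was 1.47 and did not pass. Castrated males with DHT were at a mean of -2.72, and the difference of 0.40 between the 2 DHT groups did not pass (adjusted p = 0.789). Its relative Slc22a27 differed by 1.34 (adjusted p = 0.0295), or 0.78 without animal 53, which no longer passed (adjusted p = 0.179).

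Cyp2b9 and Cyp2b13 encode P450 enzymes of steroid and drug oxidation. Cyp2b9 was at -2.17, -2.59, -3.18, 0.76 and -2.99 in the DHT group and at -4.66, -4.79, -4.52, -3.97 and -6.03 in males, again without overlap. Its difference was 2.76 ± 0.61, and 2.06 without animal 53 (adjusted p = 0.0348), where placebo stood 5.58 above males. Cyp2b9 did not pass after quantile normalization (1.43) or with only the groups compared in the fit. Cyp2b13 differed by 2.63 ± 0.72 (adjusted p = 0.0255), and by 1.63 without animal 53, which did not pass (adjusted p = 0.168). A second probe of each gene showed 0.06 and 0.14 for the same differences, and whether the probes tell the pair apart was not tested. Cyp2c40, an arachidonic acid hydroxylase, differed by 1.23 (adjusted p = 0.0292) and by 0.87 without animal 53 (adjusted p = 0.186). Its 3 further probes gave 0.93, 0.76 and 0.17.

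For another set of female-biased genes the difference did not pass, and animal 53 lay far above the other 4 DHT animals. A1bg, a secreted protein of the immunoglobulin family, was at -3.11, -4.38, -4.01, 0.51 and -5.36, against -4.98, -4.68, -5.05, -5.08 and -4.89 in males. Animal 53 lay just below the placebo mice, which ran from 0.62 to 2.09. Animals 50, 51 and 52 lay above every male and animal 54 below every male. The mean difference of 1.67, with a 95% confidence interval from 0.11 to 3.23, did not pass (adjusted p = 0.272), and without animal 53 it was 0.72, with an interval from -0.64 to 2.08. Hao2, a peroxisomal hydroxy acid oxidase, was at -4.20, -3.39, -3.68, 1.36 and -3.88, against -4.33 to -3.60 in males, and differed by 0.31 without animal 53 (interval from -0.50 to 1.11). The sulfotransferases Sult3a1 and Sult2a1 differed by 1.05 and 0.79 with all animals and by -0.03 and -0.22 without animal 53, and none of these passed. A second probe of Sult3a1 showed 0.12. Cyp17a1, the steroid hydroxylase and lyase, differed by 0.69, or 0.19 without animal 53. With placebo these 5 genes stood 2.41 to 6.42 above males.

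**Figure D2:**
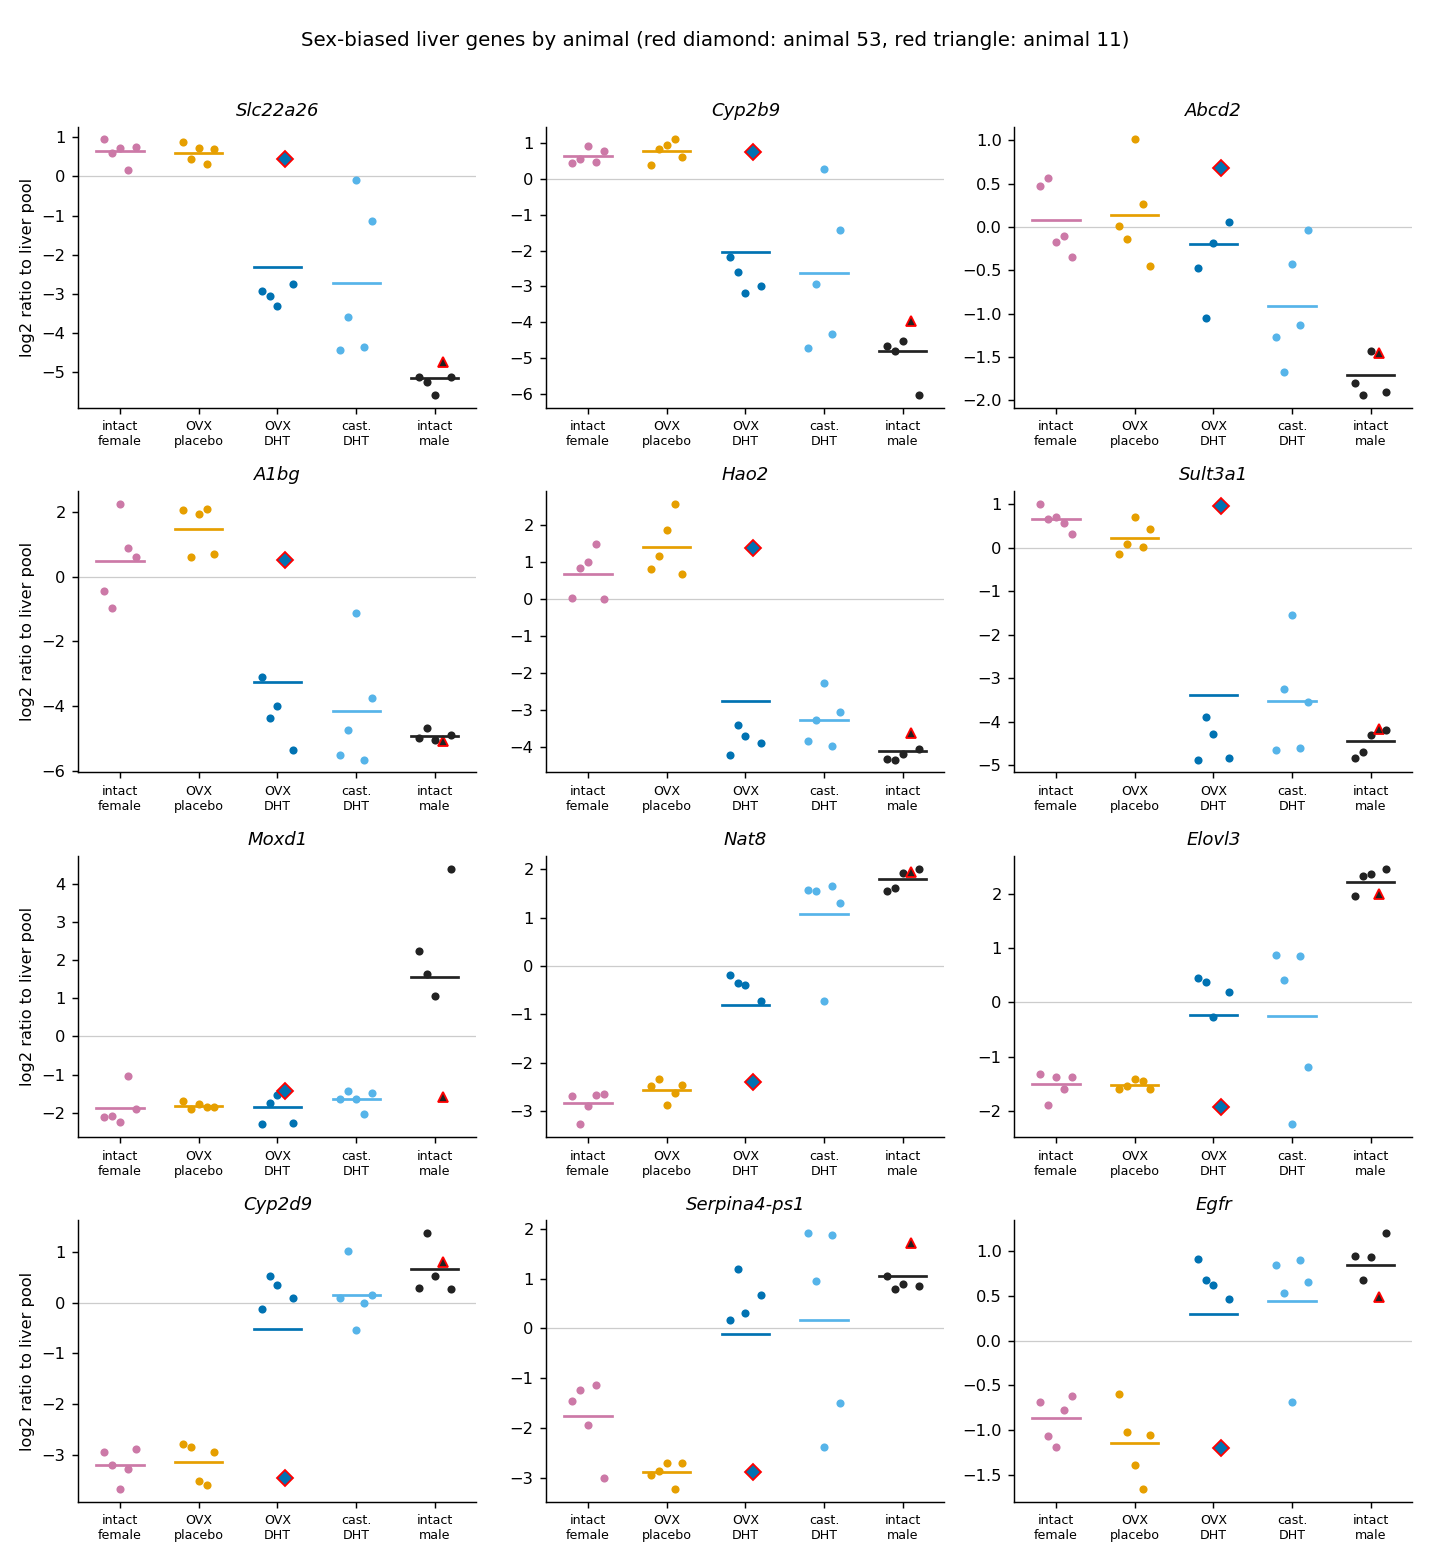
Log2 ratio to the liver pool for 12 sex-biased genes; each point is 1 animal, each bar the mean of 5, and the groups run from intact females on the left to intact males on the right. The red diamond is animal 53, which lies near the placebo mice for genes such as Sult3a1, Cyp2d9 and Egfr and among its own group for Moxd1, and the red triangle is male 11, which lies at -1.59 for Moxd1.

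For Abcd2 and Tox, also female-biased, the change under DHT against placebo did not pass. Abcd2, a peroxisomal transporter of very long chain fatty acids, was at -0.48, -1.05, -0.19, 0.68 and 0.06 in the DHT group and between -1.94 and -1.43 in males, with no overlap. It differed by 1.51 ± 0.30 (adjusted p = 0.00139), or 1.29 without animal 53 (adjusted p = 0.0127), against 1.84 with placebo. DHT against placebo gave -0.33, which did not pass (adjusted p = 0.695). Tox, a nuclear factor with an HMG box, differed by 1.16 ± 0.23 (adjusted p = 0.00182), against 1.11 with placebo, and all 5 DHT animals again lay above all males. DHT against placebo gave 0.05 (adjusted p = 0.952). Vldlr, the very low density lipoprotein receptor, fell under DHT against placebo (-0.69, adjusted p = 0.032). It stood 1.36 above males with placebo and 0.67 with DHT (adjusted p = 0.0137), or 0.57 without animal 53 (adjusted p = 0.0806). Ntrk2, a neurotrophin receptor, was lower in the DHT group (-0.24, adjusted p = 0.0404), and did not pass without animal 53 (adjusted p = 0.133).

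Among the male-biased genes, Moxd1, a monooxygenase related to dopamine beta-hydroxylase, showed no detectable response to DHT. It was at -2.30, -1.74, -1.53, -1.44 and -2.27 in the DHT group and at 2.24, 1.62, 1.05, -1.59 and 4.39 in males. The groups overlap only through male 11, which lay at the level of the ovariectomized mice. The difference was -3.40 ± 0.49 (adjusted p = 4.47e-05), or -3.50 without animal 53 and -4.18 without animal 11, and with placebo it was -3.36. With only the groups compared in the fit it did not pass. DHT against placebo gave -0.04 (adjusted p = 0.981). In castrated males with DHT the mean was -1.64, close to that of the ovariectomized mice.

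Cyp7b1, the oxysterol hydroxylase of bile acid and steroid metabolism, was at -1.44, -1.44, -1.60, -2.63 and -1.79 in the DHT group. Males were at 2.02, 1.55, 1.57, -0.66 and 1.99, all above the DHT group, with male 11 the nearest. The difference was -3.07 ± 0.68, or 8.42-fold (adjusted p = 0.00449), and -2.86 without animal 53 (adjusted p = 0.0232), against -4.23 with placebo. Asns, the asparagine synthetase that also responds to amino acid shortage, differed by -2.65 (adjusted p = 9.38e-05) and by -3.23 without animal 11, which lay at -0.75 while the other 4 males lay between 1.87 and 2.52. Placebo stood at -3.07 for Asns, and DHT against placebo did not pass (0.42, adjusted p = 0.719). Selenbp2, a selenium-binding protein, differed by -1.74 ± 0.19 (adjusted p = 3.79e-07) without overlap, against -2.14 with placebo, and a second probe gave -1.68.

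Nat8 rose under DHT and stayed short of the male level. Nat8, an N-acetyltransferase of the endoplasmic reticulum, was at -0.18, -0.36, -0.40, -2.39 and -0.72 in the DHT group and between 1.55 and 2.01 in males. Every DHT animal lay below every male, and all 5 lay above the placebo mean of -2.55, animal 53 by little. The difference was -2.61 ± 0.34 (adjusted p = 5.36e-06) and -2.22 without animal 53 (adjusted p = 2.49e-05), while DHT against placebo raised it by 1.75 (adjusted p = 0.00564). Castrated males with DHT reached a mean of 1.06, and the difference of -1.87 between the 2 DHT groups passed (adjusted p = 0.0051). Elovl3, an elongase of very long chain fatty acids, was at 0.45, 0.37, -0.27, -1.92 and 0.20, against 1.96 to 2.46 in males, a difference of -2.46 ± 0.41 (adjusted p = 0.00025) and -2.03 without animal 53. DHT against placebo gave 1.28 for Elovl3, which did not pass (adjusted p = 0.142). Castrated males with DHT stood at -0.26 for Elovl3, within 0.02 ± 0.41 of the ovariectomized group. The mean of the ovariectomized DHT group without animal 53 was 0.19.

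Cyp4a12a, a fatty acid omega-hydroxylase that makes 20-HETE, was at 0.26, 0.60, 0.60, -1.40 and 0.39 in the DHT group and between 1.36 and 2.01 in males. It differed by -1.57 ± 0.35 (adjusted p = 0.00499), or -1.20 without animal 53 (adjusted p = 0.0408), with no overlap, and placebo stood at -3.26. It did not pass after quantile normalization (-1.19). Cyp4a12b differed by -0.59 (adjusted p = 0.000258) and Gstp1, a glutathione transferase, by -0.86 (adjusted p = 0.00457). C6, a terminal complement component, differed by -0.30 (adjusted p = 0.000624), which equals its placebo distance of -0.30. Cyp2f2 differed by -0.49 (adjusted p = 0.0405) and did not pass without animal 53 (adjusted p = 0.0975), although it had not differed between the intact sexes (-0.27, adjusted p = 0.265).

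Several classical male genes did not pass, and animal 53 lay far below its group mates for most of them. Cyp2d9, the male-specific steroid 16-alpha-hydroxylase, was at -0.12, 0.53, 0.34, -3.44 and 0.08, against 0.29, 1.36, 0.53, 0.80 and 0.27 in males. The difference was -1.17 with an interval from -2.03 to -0.31 (adjusted p = 0.121), and -0.44 without animal 53 with an interval from -0.97 to 0.09. Hsd3b5, a steroid dehydrogenase of male liver, was at 0.10, 1.38, -0.16, -3.87 and -0.22, against 1.34 to 2.26 in males, and differed by -2.22 (adjusted p = 0.0794) and by -1.39 without animal 53 (interval from -2.74 to -0.04, adjusted p = 0.396). Only animal 51 reached the male range for Hsd3b5, and a second probe of this gene gave -0.15. Serpina4-ps1, a serpin pseudogene transcript, differed by -1.17 and by -0.47 without animal 53, and Egfr, the epidermal growth factor receptor, by -0.56 and -0.18. The complement gene C9 and the transporter Slco1a1 differed by -0.68 and -0.62, and Hsd3b2 by 0.44. Against placebo, DHT raised Cyp2d9 by 2.61, Hsd3b5 by 3.29, Serpina4-ps1 by 2.78, Egfr by 1.44, C9 by 1.38, Slco1a1 by 1.22 and Hsd3b2 by 0.98, and each of these 7 passed.

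**Figure D3:**
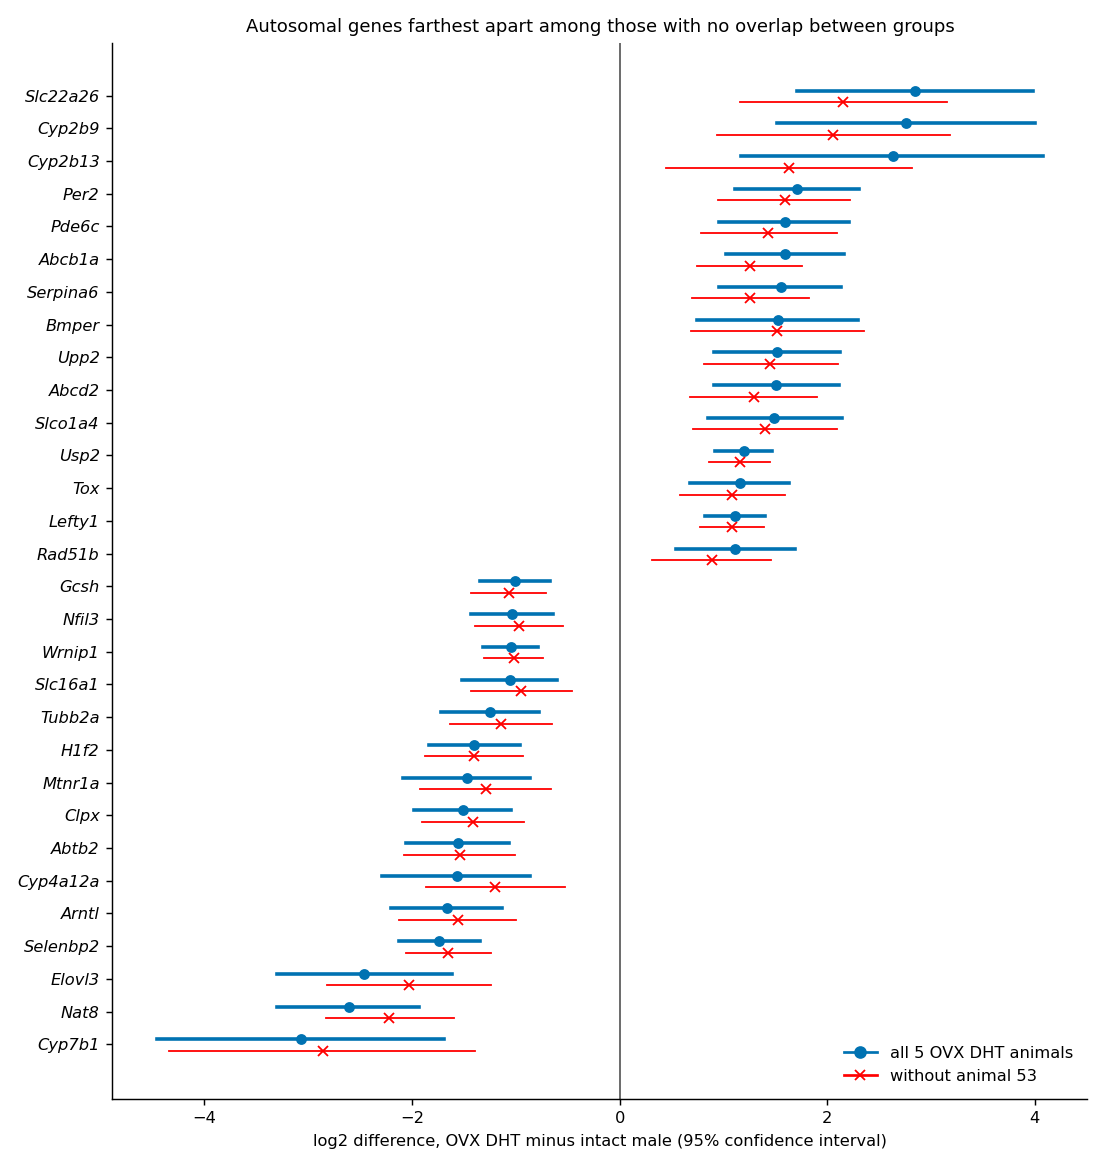
Log2 difference between ovariectomized mice with DHT and intact males, with its 95% confidence interval, for the 15 highest and 15 lowest autosomal genes among those that passed with groups that did not overlap. Blue is all 5 DHT animals and red leaves out animal 53, which moves Slc22a26, Cyp2b9 and Cyp2b13 toward 0 and leaves Usp2, Lefty1 and Bmper nearly unmoved.

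Genes that DHT moved in castrated males give a view of the comparison through other animals. Of the 70 genes raised there, 16 were lower and 10 higher than in intact males, with a median of -0.11. In ovariectomized mice, DHT against placebo raised 34 of the 70 and lowered 0. The 46 that also differed between the intact sexes held all 16 lower genes and 0 higher (median -0.55). The other 24 held all 10 higher genes and 0 lower (median 0.40). Of the 59 lowered there, 12 were higher and 15 lower than in intact males, with a median of 0.10. In ovariectomized mice, DHT against placebo lowered 21 of the 59 and raised 0. The 34 sex-differing ones held 12 higher and 1 lower (median 0.66), and the other 25 held 0 and 14 (median -0.58). That split rests on the same intact males. Among all autosomal genes 1.73% were higher and 3.25% lower than in intact males, and DHT against placebo raised 0.699% and lowered 0.584%. Per2, Usp2 and Upp2 were among the raised genes that lay above males, and Arntl, Clpx and Tubb2a among the lowered genes that lay below them. In ovariectomized mice, DHT against placebo passed for Usp2 (0.80), Upp2 (1.52) and Clpx (-0.97). It did not pass for Per2 (0.88, adjusted p = 0.168), Arntl (-0.92, adjusted p = 0.0782) or Tubb2a (-0.64, adjusted p = 0.211), and with placebo these 3 already stood at 0.83, -0.74 and -0.61 from males. Without animal 53 the counts against intact males were 11 lower and 9 higher for the raised genes, and 5 higher and 12 lower for the lowered ones. Of all autosomal genes, 0.814% were then higher and 1.75% lower.

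Some genes of the circadian clock, the loop in which Arntl (BMAL1) drives the Per genes and Dbp, differed from males. Of 5 measured genes of a list named here for Arntl (Arntl, Clock, Npas2, Cry1 and Nfil3), 2 were lower. Of 9 of a list of Per, Nr1d, Dbp and related genes 3 were higher. Beside them, 3.25% of all autosomal genes were lower and 1.73% higher. The others did not pass, among them Clock (0.02), Cry1 (0.01), Per1 (0.16), Per3 (-0.06) and Nr1d1 (-0.06). Arntl was at -0.71, -0.98, -1.04, -1.42 and -0.98 in the DHT group and at 0.95, 0.81, 0.56, 0.18 and 0.69 in males, without overlap. It differed by -1.66 ± 0.26 (adjusted p = 0.00013), while placebo against males gave -0.74 and intact females against males 0.43, neither of which passed. Per2, a repressor of the loop, was at 0.22, 0.81, 0.33, 1.12 and 0.65, against -1.13, -1.60, -0.99, -0.43 and -1.28, a difference of 1.71 ± 0.30 (adjusted p = 0.000337). Nfil3, a repressor of D-box genes, differed by -1.04 (adjusted p = 0.000872), Dbp by 0.28 (adjusted p = 0.0492) and Nr1d2 by 0.56 (adjusted p = 0.0498), and the last 2 did not pass without animal 53. A second Nr1d2 probe showed 0.05. Usp2, a deubiquitinase with a daily rhythm, differed by 1.20 ± 0.14 (adjusted p = 5.42e-07), and Upp2, a liver uridine phosphorylase, by 1.52 ± 0.30 (adjusted p = 0.00138), where a second Upp2 probe showed 0.04. Animal 53 was not apart on these genes, at 1.12 for Per2, 0.61 for Usp2 and 0.85 for Upp2.

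A clock index per animal, the mean of the Per, Nr1d and Dbp list minus that of the Arntl list, was 0.28 to 0.70 in the DHT group and -0.62 to -0.23 in males. The difference was 0.88, the groups did not overlap, and the two-sided exact permutation p was 0.00794, the smallest that 5 against 5 allow. Castrated males with DHT lay at 0.28 to 0.50, placebo-treated ovariectomized mice at -0.37 to 0.28 and intact females at -0.84 to -0.53. The labels do not give the hour of collection. With the clock index as a covariate 20 probes passed in place of 1056, so the index and the group cannot be told apart.

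**Figure D4:**
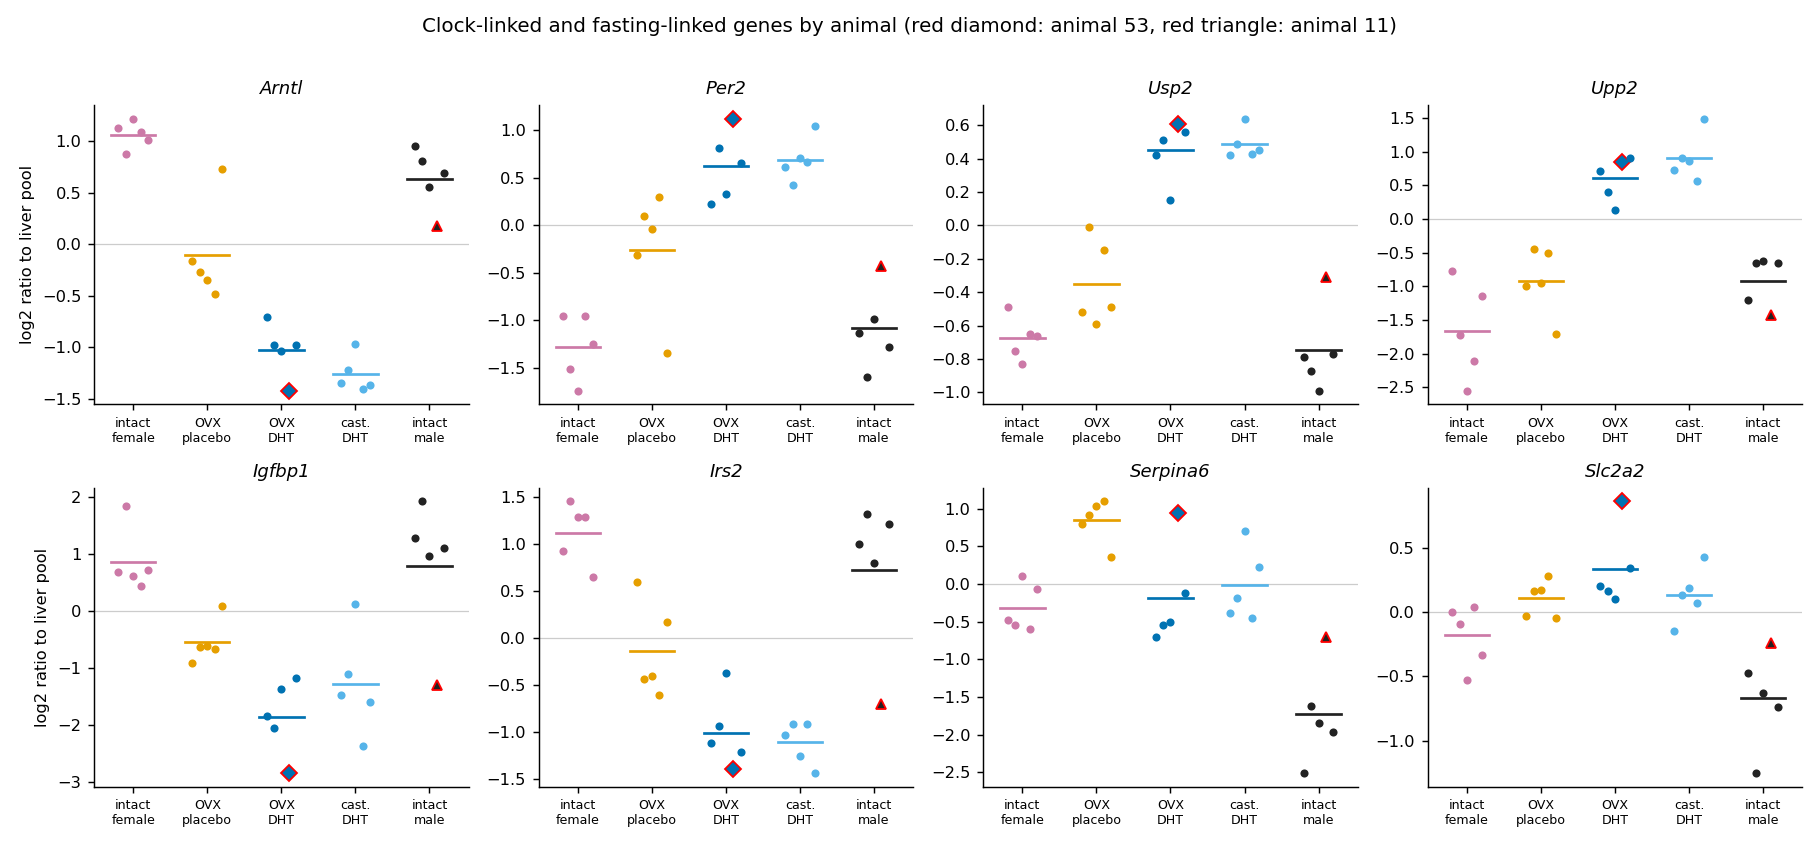
Log2 ratio to the liver pool for 8 genes of the clock and of fasting metabolism, drawn as in the plot of sex-biased genes. For Arntl, Per2, Usp2 and Upp2 the DHT animals of both sexes lie on one side and all intact animals on the other, and male 11 (red triangle) lies apart from the other males for Igfbp1 and Irs2.

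Of 17 measured genes of glucose output and insulin signalling, 1 was higher and 3 were lower, with a median of -0.14, beside 1.73% and 3.25% of all autosomal genes. The other 13 did not pass, among them the gluconeogenic enzymes Pck1 (-0.29) and Fbp1 (-0.39). Igfbp1, a fasting-induced binding protein of insulin-like growth factors, was at -1.85, -2.05, -1.37, -2.85 and -1.17 in the DHT group and at 1.29, 1.93, 0.97, -1.30 and 1.10 in males. Only male 11 overlapped with the DHT group, and the difference was -2.66 ± 0.49 (adjusted p = 0.000685), or -3.18 without that male. Irs2, the insulin receptor substrate that rises in fasting liver, differed by -1.73 (adjusted p = 0.000285), or -2.09 without male 11, and a second probe gave -0.47. G6pc, the glucose-6-phosphatase that releases glucose, differed by -1.18 (adjusted p = 0.016) and did not pass without animal 53 (adjusted p = 0.0939), and Slc2a2, the liver glucose transporter GLUT2, differed by 1.00 (adjusted p = 0.000666). Intact females did not differ from males at Igfbp1 (0.06), Irs2 (0.40), G6pc (-0.28) or Slc2a2 (0.49) by the test. Placebo-treated ovariectomized mice stood at -1.35, -0.86, -0.80 and 0.78 from males in that order, and only Slc2a2 passed (adjusted p = 0.00391). DHT against placebo passed for none of them (adjusted p = 0.176 to 0.668).

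Of 22 genes of fatty acid synthesis, 3 were higher and 1, Elovl3, was lower. For this list and those below, the shares of all autosomal genes were 1.73% higher and 3.25% lower. Srebf1, the lipogenic transcription factor, differed by 0.97 (adjusted p = 0.00995), Thrsp, its lipogenic partner gene, by 1.16 (adjusted p = 0.0213) and Fasn, the fatty acid synthase, by 0.73 (adjusted p = 0.0363). Without animal 53, Srebf1 passed (adjusted p = 0.0478) and Thrsp and Fasn did not. None of these 3 passed after quantile normalization or with only the groups compared. Of 16 cholesterol genes 1 was lower, Insig2, a sterol sensor of the endoplasmic reticulum (-1.17, adjusted p = 0.0101), and of 23 genes of fatty acid oxidation 1 was lower, Angptl4, an inhibitor of lipoprotein lipase (-0.53, adjusted p = 0.0449). Neither passed without animal 53. Among 19 bile acid genes 3 were higher and 2 lower. The uptake transporter Slco1a4 differed by 1.49 (adjusted p = 0.00305), with other probes at 0.25 and -0.06, the steroid reductase Akr1d1 by 1.08 (adjusted p = 0.0367), the sterol exporter subunit Abcg5 by 0.60 (adjusted p = 0.00507) and the bile acid dehydrogenase Hsd3b7 by -0.45 (adjusted p = 0.00881). Without animal 53, Akr1d1 (0.91, adjusted p = 0.167) and Hsd3b7 (-0.39, adjusted p = 0.051) did not pass. With placebo, the distances from males were 0.81 for Srebf1, 0.88 for Thrsp and 1.08 for Fasn. They were 1.17 for Slco1a4, 1.01 for Akr1d1, 0.59 for Abcg5, -0.82 for Insig2, -0.51 for Angptl4 and -0.11 for Hsd3b7. Of these placebo distances, those of Thrsp, Insig2 and Hsd3b7 did not pass. DHT against placebo passed for none of these genes.

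Serpina6, the plasma carrier of glucocorticoids, was at -0.70, -0.54, -0.51, 0.95 and -0.12 in the DHT group, against -2.51, -1.62, -1.85, -0.70 and -1.97 in males. The groups touched at -0.70 without crossing, and the difference was 1.55 ± 0.29 (adjusted p = 0.000808), against 2.57 with placebo. It did not pass after quantile normalization (1.14) or with only the groups compared. Abcb1a, a drug efflux pump, differed by 1.59 ± 0.28 (adjusted p = 0.000447) and by 1.26 without animal 53. Pde6c, a phosphodiesterase subunit, differed by 1.59 and Bmper, a regulator of bone morphogenetic proteins, by 1.53, but second probes of these genes showed 0.03 and 0.04, and neither passed after quantile normalization (1.29 and 1.13). Lefty1, a secreted inhibitor of Nodal signalling, differed by 1.11 ± 0.14 (adjusted p = 5.36e-06), and Rad51b, a homologous recombination factor, by 1.11 (adjusted p = 0.0149), or 0.89 without animal 53 (adjusted p = 0.0976). With placebo, the distances from males were 0.64 for Lefty1, 1.27 for Pde6c and 2.61 for Rad51b, and each passed. DHT against placebo passed for Rad51b (-1.50, adjusted p = 0.0047). It did not pass for Lefty1 (0.47, adjusted p = 0.117) or Pde6c (0.32, adjusted p = 0.715).

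On the lower side, Abtb2, a BTB domain protein, differed by -1.56 ± 0.24 (adjusted p = 0.00011) and Clpx, the mitochondrial protease subunit that also activates heme synthesis, by -1.51 ± 0.23 (adjusted p = 7.12e-05). Intact females lay at 0.47 and 0.88 for these genes, beside males at 0.82 and 0.65, and neither passed between the intact sexes. With placebo, Abtb2 stood at -0.84 from males (adjusted p = 0.0221) and Clpx at -0.54, which did not pass (adjusted p = 0.139). DHT against placebo gave -0.73 for Abtb2, which did not pass (adjusted p = 0.172), and -0.97 for Clpx, which passed (adjusted p = 0.0252). The melatonin receptor Mtnr1a differed by -1.47, the histone gene H1f2 by -1.40, the tubulin gene Tubb2a by -1.25 and the lactate transporter Slc16a1 by -1.06, each with groups that did not overlap. Wrnip1, a helicase-interacting protein, differed by -1.05 ± 0.13 (adjusted p = 2.16e-06). Cell cycle genes went both ways, 2 of 23 higher and 4 lower, beside 1.73% and 3.25% of all autosomal genes. Higher were the cyclin Ccnd1 (0.89, adjusted p = 0.00604) and the inhibitor Cdkn2c (0.38, adjusted p = 0.0025). Lower were the antiproliferative gene Btg1 (-0.75, adjusted p = 4.9e-05) and the inhibitor Cdkn1a (-1.02, adjusted p = 0.0123). Cdkn1a did not pass without male 8, without male 9 or with only the groups compared. Also lower were the kinase Cdk1 (-0.36, adjusted p = 0.0405) and Gadd45g (-2.24, adjusted p = 0.0326), both outside the naming rule. Neither passed without animal 53 (adjusted p = 0.185 and 0.165).

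Of 21 conjugation enzymes 2 were higher, Sult1c2 (0.95, adjusted p = 0.00162) and Gstt3 (1.01, adjusted p = 0.0435), and Gstp1 was the 1 lower, where 1.73% of all autosomal genes were higher and 3.25% lower. Gstt3 did not pass without animal 53 (0.82, adjusted p = 0.195). Neither Sult1c2 nor Gstt3 passed after quantile normalization or with only the groups compared. Of 27 complement and clotting genes 2 were lower, C6 and the lectin Mbl1 (-0.43, adjusted p = 0.0125), and of 14 genes of the amino acid and unfolded protein responses 2 were lower, Asns and Sesn2 (-0.42, adjusted p = 0.012). Mbl1 did not pass without animal 53 (-0.39, adjusted p = 0.0603). Sesn2 did not pass without male 8, without male 9, after quantile normalization or with only the groups compared. Of 18 growth hormone and STAT5 pathway genes only Tox passed. The receptor Ghr differed by 0.14 ± 0.23, Stat5b by -0.14, Hnf4a by -0.12 and Igf1 by -0.38, none of which passed, and the estrogen receptor Esr1 by -0.10. Of 14 nuclear receptor genes 1 was higher, Pparg (0.28, adjusted p = 0.0367), which did not pass without animal 53. The androgen receptor gene, the prolactin receptor gene and the major urinary protein genes were not analysed here.

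Set directly against castrated males with the same pellet, the DHT group differed at 19 probes and at 5 autosomal genes (0.0479%). Nat8 is given above. Gcsh, the H protein of glycine cleavage, was at -0.88, -0.96, -0.82, -0.63 and -0.95, against a castrated DHT mean of 0.79 and an intact male mean of 0.17, and differed by -1.64 from castrated males (adjusted p = 8.88e-08) and by -1.01 from intact males (adjusted p = 0.000208). Celsr1, a planar polarity cadherin, differed by 0.94 from castrated males with DHT (adjusted p = 0.0423), or by 0.88 without animal 53 (adjusted p = 0.182), and by -0.03 from intact males. Impg1 (-0.41) and Nsg2 (-0.54) complete the 5 and are named here outside the naming rule, after their values were seen. The remaining named calls lay on the sex chromosomes: Eif2s3y (-6.18), Kdm5d (-2.53), Ssty1 (-1.21) and a Y-linked gene model were lower and the X-linked Eif2s3x (0.73) was higher. The effect of DHT against placebo did not differ between ovariectomized and castrated mice at any probe after adjustment in limma: 0 of 23574 passed, with 1790 at an unadjusted p under 0.05. With 5 animals a group this does not show that the effects are alike.

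**Figure D5:**
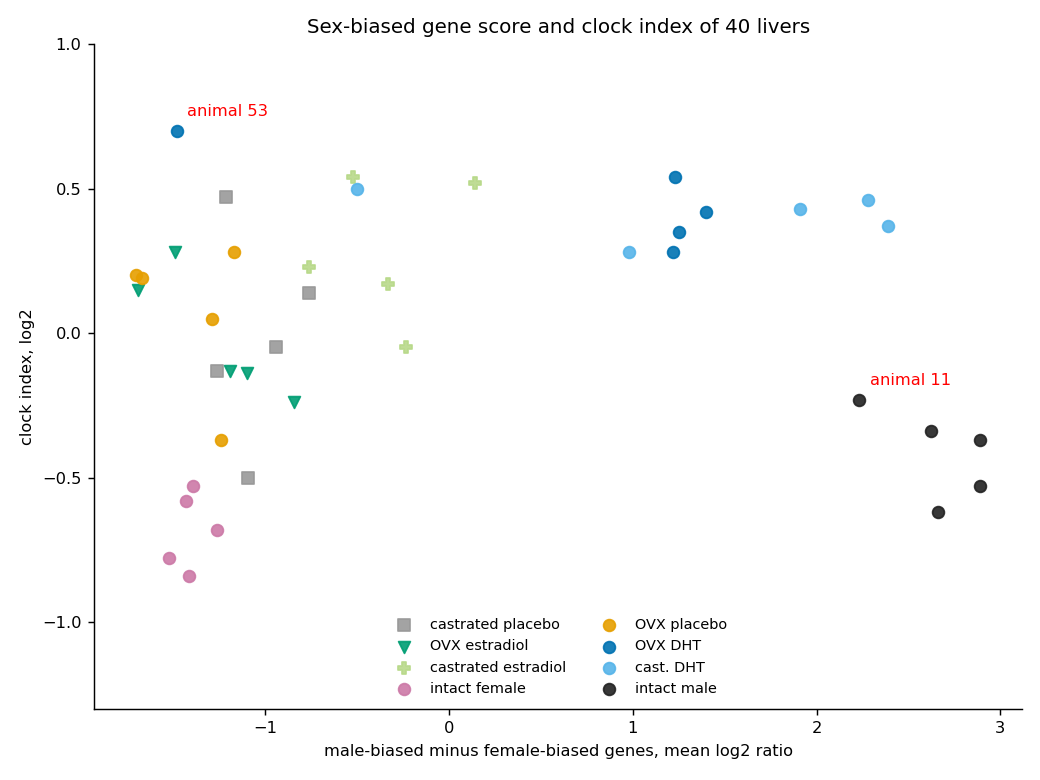
Mean of male-biased minus female-biased genes (x axis, log2) and clock index (y axis, log2) for all 40 livers, 1 point per animal and 1 colour per group. On the x axis 4 of the 5 ovariectomized mice with DHT lie between the placebo group and intact males and animal 53 lies at -1.48. On the y axis all 5 lie at 0.28 or more, above every intact male.

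Markers of liver cell types were examined in 9 lists. Measured were 8 hepatocyte, 13 Kupffer cell, 12 lymphoid, 5 antigen presentation and 9 endothelial genes. The rest were 9 stellate cell, 3 bile duct, 5 erythroid and 7 neutrophil genes. Ratios to a liver pool do not show whether a tissue marker is present, only how it differs between livers. Over 9 marker lists, 2 genes passed: Lyve1 of sinusoidal endothelium (0.50, adjusted p = 0.0212) and Epcam of bile duct cells (0.36, adjusted p = 0.0321). Both were higher, as were 1.73% of all autosomal genes, while 3.25% were lower. Whether the number of markers that passed departs from these shares was not tested. Epcam did not pass without animal 53 (0.31, adjusted p = 0.135). Lyve1 did not pass without animal 50, 52 or 54, without male 9, 10 or 11, or with only the groups compared in the fit. The mean level of the 8 hepatocyte markers ran from -0.18 to 0.13 in the DHT group and from 0.00 to 0.18 in males, that of 13 Kupffer cell markers from -0.74 to -0.26 and from -0.61 to -0.15, and the 2 groups overlapped in each of the 9 lists. In bulk liver, fewer cells of a type and less RNA per cell cannot be told apart.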

How the data were processed

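RNA of 40 livers was hybridised to 2-colour arrays, the liver in Cy5 and a pool of the 40 livers in Cy3 on every array, per the labels. The authors deposited 1 log10 ratio per probe and array; the background correction and normalization are not given in the sources used here. The log10 ratios were multiplied by 3.32 to give log2 ratios and not normalized further. There were 0 missing values, and 29 values on 16 probes lay at the limit of 2 on the log10 scale. Of 23574 probes, 13665 had 1 symbol, 48 several and 9861 none. Names were updated through Entrez identifiers, which left 12662 probes and 10842 genes, and 1157 genes had several probes, each represented by whichever probe varied most (SD) across arrays; its other probes are given where they differ in sign or by over 3 times.

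All 8 groups were fitted together in limma 3.58.1 (R 4.3.3; lmFit, eBayes, 32 residual degrees of freedom), and p-values were adjusted over all probes by Benjamini-Hochberg. The procedure was tested on simulated data. Named genes are the 15 highest and 15 lowest autosomal genes that passed without overlap between the groups, the measured members of the male-biased and female-biased lists, up to 4 per other list by adjusted p, up to 5 each way against castrated males with DHT, and the sex-chromosome checks. The members and lists were chosen with earlier results of these data known. Replicates are animals. No batch or slide is given.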

Additional observations from a re-analysis of the deposited data

Results flagged for a closer look

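Of 190 groups of 5 animals examined over 95 genes, 25 held 1 animal whose gap to the nearest other exceeded 0.71 of the group's range, Dixon's 95% critical value for 5 animals. Chance gives about 1 in 20 for independent groups. These genes share the same animals and some were chosen by their values here, so the count cannot be judged against that share. Animal 53 of the DHT group accounted for 14 of the 25, male 11 for 8 and male 9 for 3. Values are log2 ratios to the liver pool.

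Animal 53 lay above its 4 group mates for the female-biased genes Slc22a26 (0.44), Slc22a27 (0.95), Cyp2b9 (0.76), Cyp2b13 (1.14), Hao2 (1.36), Sult2a1 (1.90), Sult3a1 (0.95) and Cyp17a1 (0.13), and for the lipogenic gene Fasn (0.80). It lay below them for the male-biased genes Cyp2d9 (-3.44), Cyp4a12a (-1.40), Egfr (-1.20), Nat8 (-2.39) and Serpina4-ps1 (-2.88).

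Male 11 lay below the other 4 males for Cyp7b1 (-0.66), Asns (-0.75), Irs2 (-0.71), Selenbp2 (0.54) and Eif2s3y (0.41). It lay above them for Serpina4-ps1 (1.72), Srebf1 (0.34) and Sult1c2 (-0.40). Male 9 lay above the other males for Gstp1 (1.48) and Igf1 (0.69) and below them for Tox (-1.44).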

How the results depend on the processing

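Probes that differed between the DHT group and intact males numbered 1056, and 560 (without animal 53) to 1462 (without male 11) when each animal was left out in turn. The same ranges were 1736 to 3334 for ovariectomized placebo against intact males, 89 to 443 for DHT against placebo, 15 to 24 against castrated males with DHT, 762 (without male 8) to 2870 (without male 11) for castrated DHT against intact males, 1455 to 2604 for intact females against males and 335 (without animal 62) to 1115 for DHT in castrated males. Male-biased genes lower were 10 to 11, female-biased higher 4 to 9, androgen-raised genes lower 11 to 15 and higher 8 to 12, androgen-lowered genes higher 5 to 12 and lower 12 to 15, and the clock index difference 0.82 to 0.93. Quantile normalization gave 358 probes, with 757 for DHT against placebo and 372 for castrated DHT against males; female-biased genes higher were 2, androgen-raised lower 5 and androgen-lowered higher 1. Fitting only the groups compared gave 387 (161 higher, 226 lower, or 41.6% higher against 31.5%), and 545, 241, 1249 and 260 for DHT against placebo, castrated DHT against males, the intact sexes and DHT in castrated males; the gene counts were 3, 5 and 5 in the order just given. Array weights gave 2291, and 6307, 1298, 1310, 6220, 5443 and 3801 for the comparisons in the order of the ranges. With the clock index as a covariate 20 probes passed, with 1160 for placebo and 16 for castrated DHT against males; male-biased lower were 2, female-biased higher 0, androgen-raised lower 2 and higher 0, androgen-lowered higher 0 and lower 0. Without animals 53 and 11, chosen after seeing the data, DHT against placebo gave 531, castrated DHT against males 2813, female-biased higher 5 and androgen-lowered higher 6. At a 2-fold threshold for androgen-responsive genes, raised lower were 6, raised higher 3 and lowered lower 4. The cause of these shifts was not tested.

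Of 77 named genes that passed, Cdk1 not counted, 51 passed without each animal in turn and 35 in every setting other than the clock covariate. In every setting 4 passed (Nat8, Selenbp2, Eif2s3y and Kdm5d). Of the 77, 32 no longer passed after quantile normalization and 35 with only the groups compared, and not each of these is stated above. Signs turned with the clock covariate for Hao2 (-0.06), Sult2a1 (-0.83), Serpina4-ps1 (0.08), Egfr (0.16), Hsd3b2 (-0.39), Dbp (-0.02), Esr1 (0.01), Ghr (-0.07), Celsr1 (0.44) and Gadd45g (0.26). With each animal left out in turn, Sult3a1 ran from -0.03 (without animal 53) to 1.42, Sult2a1 from -0.22 (without animal 53) to 1.13, and Celsr1 from -0.13 to 0.06, turning sign without animal 50 (0.04), male 8 (0.04) or male 11 (0.06). Without animals 53 and 11, Sult2a1 was -0.10 and Celsr1 was 0. No paired analysis was possible because the groups share no animal numbers. With 5 arrays a group, the number of arrays limits the precision, and signal over background was not analysed here.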

Other observations

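Several genes passed although the groups overlapped, and fell outside the rule for named genes; they were chosen after their values were seen. Rgs16, a regulator of G protein signalling, was at -1.25, -0.15, -0.47, 0.94 and 0.59 in the DHT group and at -2.64, -2.55, -3.30, -0.71 and -3.34 in males. Male 11 was the only male within the range of the DHT group, and the difference was 2.44 ± 0.47 (adjusted p = 0.00108 in limma), or 2.19 without animal 53. Cyp26a1, which clears retinoic acid, differed by 1.39 (adjusted p = 0.0115) and by 1.24 without animal 53 (adjusted p = 0.0583). Bhlhe40, a repressor of the clock loop, differed by 1.19 (adjusted p = 0.00371). Gadd45g, a stress-response gene, differed by -2.24 (adjusted p = 0.0326) and by -1.82 without animal 53 (adjusted p = 0.165). Bmf, a BH3-only cell death gene, differed by -1.27 (adjusted p = 0.00128), and Ces4a, a carboxylesterase, by -1.28 (adjusted p = 0.00164), against -2.38 and -2.06 with placebo. After quantile normalization Rgs16, Cyp26a1, Gadd45g and Bmf did not pass. With only the groups compared Cyp26a1, Bhlhe40, Gadd45g, Bmf and Ces4a did not pass.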
